A study of Mus musculus with 1 sample.

Results

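RET is a receptor tyrosine kinase that GDNF-family ligands engage through a separate, lipid-anchored co-receptor of the GFRα family. The genes described here are *Ret*, the co-receptors *Gfra1*, *Gfra2* and *Gfra3*, the ligands *Gdnf*, *Nrtn* and *Artn*, and *Ntrk3*, which encodes the neurotrophin-3 receptor TrkC. They were chosen by symbol, and all 8 were found among the 32285 genes of the matrix. Together they had 1386 UMIs (counted RNA molecules) in the 10139 cells kept.

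GDNF binds mainly GFRα1, neurturin (*Nrtn*) GFRα2 and artemin (*Artn*) GFRα3, and each pair then assembles with RET, which signals through the MAPK and PI3K routes. Co-receptors can also act without RET, for example with the adhesion molecule NCAM1. Neurotrophins use the Trk kinases and the shared receptor encoded by *Ngfr*. All of these genes are known from neural-crest derivatives such as sympathetic neurons, and chromaffin cells and their glia-like sustentacular neighbours come from the same crest.

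A single droplet library was made from untreated wild-type mouse adrenals at postnatal day 15, enriched for medulla by trimming excess cortex by hand. It pooled 10 glands of 5 animals, males and females mixed, and 10000 viable cells were used. The matrix held 11214 barcodes with 500 to 33809 UMIs each. There was 1 library, so there are no replicates: intervals are exact, at 95%, and cover counting error only, and no p-values are given.

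Levels are CPM, UMIs of a gene per 1000000 UMIs of all cells of a class. Where a class had 0 UMIs, the level or share said to be allowed is that of 3 UMIs or 3 cells. It lies below the upper end of the exact interval, which was 16.5 CPM for *Ret* in sustentacular-like cells. Clustering without the members and the other pathway genes gave 12 classes with 9358 cells, named from markers. There were 1662 adrenaline chromaffin-like cells (most with *Pnmt*, the enzyme that makes adrenaline) and 387 noradrenaline chromaffin-like cells. Clusters with both chromaffin and sustentacular markers were called transitioning, 92 cells with *Pnmt* in most cells (transitioning adrenaline-like) and 327 without (transitioning noradrenaline-like). Transitioning noradrenaline-like cells still held *Pnmt* at 744 CPM, against 224 CPM in noradrenaline and 11626 CPM in adrenaline chromaffin-like cells. A further 90 cells were cycling chromaffin-like and 176 were sustentacular-like. The rest were cortex-like (3363), cycling cortex-like (353), endothelial-like (1748), cycling endothelial-like (400), immune-like (670) and fibroblast-like (90).

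Several facts of these classes touch the values below. The sustentacular-like cells were shallow, with a median of 1136.5 UMIs per cell against 3567 over all cells kept. Their 10 markers summed to 8090 CPM, against 1321 CPM in transitioning noradrenaline-like, 902 CPM in transitioning adrenaline-like and 11.9 CPM in adrenaline chromaffin-like cells. *Kcna1* and *Scn7a* were the markers of the list among their 10 leading genes, where collagen genes such as *Col3a1* also stood. The sustentacular-like cells also held erythroid (haemoglobin) markers at 9033 CPM, against 2201 CPM in adrenaline chromaffin-like cells, chromaffin markers at 3010 CPM with *Slc18a1* at 0, and fibroblast markers at 1234 CPM with *Dcn*, *Pdgfra* and *Lum* at 0. The fibroblast-like cells held endothelial markers at 4050 CPM, chromaffin markers at 3098 CPM, cortex markers at 1935 CPM, mural markers at 1549 CPM and sustentacular markers at 718 CPM. The part of these markers in the values of either class was not tested. Another 781 cells lay in clusters with markers of unrelated cell types and were left out, and 518 of them were called doublets.

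**Figure D1:**
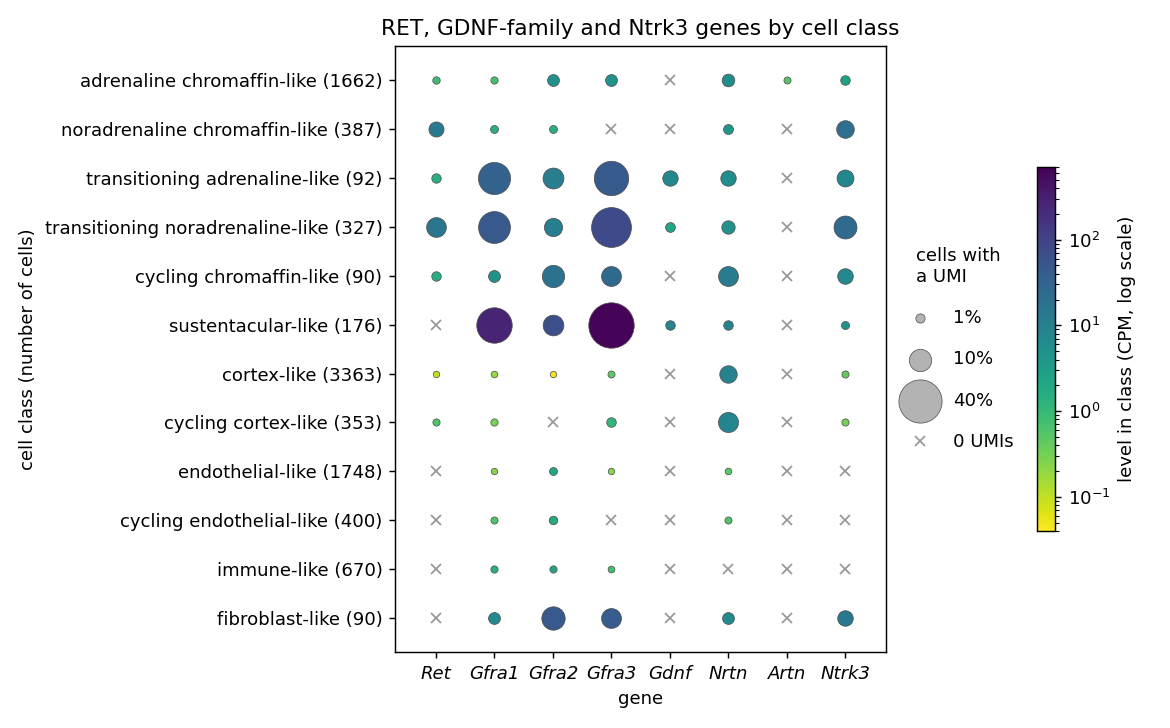
Level and detection of the 8 genes (x axis) in the 12 cell classes (y axis, number of cells in brackets). Dot area gives the percent of cells with a UMI, colour the level in CPM on a log scale, and a cross 0 UMIs. The sustentacular-like row holds large dots for *Gfra3* (44.3%) and *Gfra1* (26.7%), and the *Nrtn* column has dots in both cortex-like (5.80%) and adrenaline chromaffin-like (2.65%) rows.

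*Ret* (ENSMUSG00000030110; GRCm38 chr6:118151745-118197718, minus strand, protein-coding) encodes the signalling receptor itself. It had 67 UMIs in the cells kept, 55 of them in medullary classes. Transitioning noradrenaline-like cells had a level of 15.8 CPM (10.7 to 22.6) and noradrenaline chromaffin-like cells one of 12.8 CPM (7.48 to 20.5). Adrenaline chromaffin-like cells had 0.821 CPM (0.301 to 1.79). The high classes are thus the pair without *Pnmt* in most cells. The transitioning adrenaline-like and cycling chromaffin-like cells had 1 UMI each, 1.46 CPM (0.0371 to 8.16) and 1.73 CPM (0.0439 to 9.66). No UMI was found in sustentacular-like, endothelial-like, cycling endothelial-like, immune-like or fibroblast-like cells. In the shallow sustentacular-like class this allows a level of up to 13.4 CPM, as high as that of noradrenaline chromaffin-like cells, so absence could not be shown at this depth.

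The 2 highest classes of *Ret* did not differ beyond counting error, with a ratio of 1.23 (0.658 to 2.38). Noradrenaline chromaffin-like cells were 15.6-fold (5.88 to 48.4) above adrenaline chromaffin-like cells. The transitioning classes stood in the same order, with a ratio of 10.8 (1.79 to 440) on 30 UMIs against 1. Their division depends on the settings, and this ratio was not followed over them. A UMI was seen in 7.65% of transitioning noradrenaline-like, 4.13% of noradrenaline and 0.361% of adrenaline chromaffin-like cells, whose median depths were 4647, 2669 and 3164 UMIs. Cortex-like cells, with a median of 5113 UMIs, had one in 0.0595% of cells. With each cell thinned to 1000 UMIs the 3 medullary shares were 2.15% (0.870 to 4.39), 1.37% (0.446 to 3.17) and 0.121% (0.0147 to 0.437). Their order was the same, but they rest on 7, 5 and 2 cells, and the first 2 are not separated here.

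*Gfra1* (ENSMUSG00000025089; chr19:58235604-58455909, minus strand) encodes the preferred GDNF co-receptor, and *Gm16277* is annotated on the opposite strand within it. Reads of the 2 cannot be told apart unless the counting used strand, which is not given in the sources used here. Its level was 268 CPM (205 to 345) in sustentacular-like, 46.9 CPM (37.6 to 57.7) in transitioning noradrenaline-like and 33.7 CPM (21.3 to 50.5) in transitioning adrenaline-like cells. These classes are the ones with sustentacular markers in the medulla. Adrenaline chromaffin-like cells had 5 UMIs (0.684 CPM) and noradrenaline chromaffin-like cells 2 (1.51 CPM). The sustentacular level was 5.72-fold (4.05 to 8.03) above the next class, and the 2 transitioning classes did not differ beyond counting error (1.39, 0.872 to 2.31).

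*Gfra3* (ENSMUSG00000024366) encodes the artemin co-receptor. Its order was similar to that of *Gfra1*, with 644 CPM (543 to 758) in sustentacular-like, 77.4 CPM (65.4 to 91.0) in transitioning noradrenaline-like and 45.4 CPM (30.8 to 64.4) in transitioning adrenaline-like cells. Fibroblast-like cells had 41.4 CPM (21.4 to 72.3) and cycling chromaffin-like cells 26.0 CPM (14.6 to 42.9). The sustentacular level was 8.32-fold (6.56 to 10.5) above that of transitioning noradrenaline-like cells, which in turn exceeded transitioning adrenaline-like cells 1.71-fold (1.15 to 2.60). Adrenaline chromaffin-like cells had 37 UMIs, 5.06 CPM (3.56 to 6.98), and the noradrenaline chromaffin-like cells had none, which allows up to 2.26 CPM.

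In the main clustering *Gfra3* was therefore higher in adrenaline than in noradrenaline chromaffin-like cells, on 37 UMIs against 0, with an exact bound of at least 1.73-fold. With 0 UMIs on one side this ratio had no main value, so it was not followed over other settings. The 0 stood at a resolution of 0.8, with a stricter filter and with called doublets removed. At a resolution of 0.2, with 30 principal components or with the pathway genes kept, noradrenaline chromaffin-like cells had *Gfra3* UMIs. Whether the bound holds under other clusterings was not tested. The 37 adrenaline chromaffin-like cells with a *Gfra3* UMI held sustentacular markers at 41.7 CPM, and the 1625 cells without one at 10.997 CPM. The noradrenaline chromaffin-like cells, with 0 *Gfra3* UMIs, held these markers at 60.4 CPM. In the cycling class the 15 UMIs came from 7 cells, whose sustentacular markers stood at 584 CPM against 108 CPM in the other 83. The part of these markers in the values was not tested.

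*Gfra2* (ENSMUSG00000022103; chr14:70890120-70979838, plus strand) encodes the neurturin co-receptor. Its highest levels were 67.1 CPM (37.5 to 111) in sustentacular-like and 48.3 CPM (26.4 to 81.0) in fibroblast-like cells, which did not differ beyond counting error (ratio 1.39, 0.625 to 3.11). Cycling chromaffin-like cells followed with 17.3 CPM (8.31 to 31.9), and the transitioning adrenaline-like and transitioning noradrenaline-like cells with 11.71 CPM (5.06 to 23.1) and 11.1 CPM (6.85 to 16.9). Neither neighbouring pair among these last 3 differed beyond counting error. Unlike *Gfra1*, *Gfra2* had 38 UMIs in adrenaline chromaffin-like cells, 5.20 CPM (3.68 to 7.14), and 9 UMIs in endothelial-like cells, 2.20 CPM (1.00 to 4.17). Noradrenaline chromaffin-like cells had 2 UMIs, 1.51 CPM (0.183 to 5.45). Only 1 UMI was found in the 3363 cortex-like cells.

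**Figure D2:**
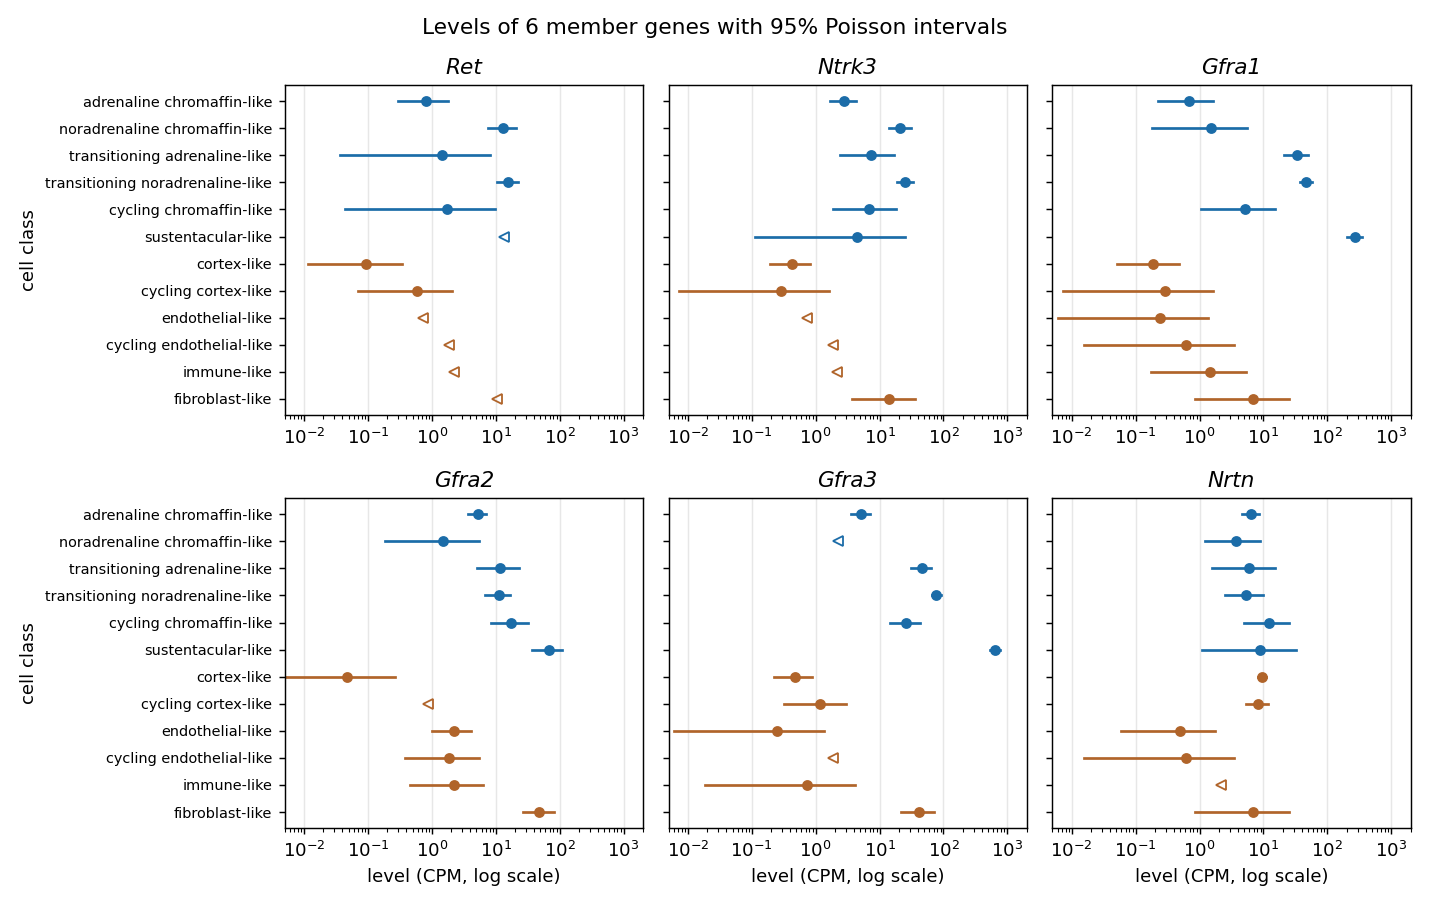
Levels of 6 of the genes (panels) in each cell class (y axis) in CPM on a log scale (x axis). Points are levels, lines exact 95% Poisson intervals, open triangles the level that 0 UMIs allows (3 UMIs); blue marks medullary classes and brown the others. *Gfra1* and *Gfra3* stand farthest right in sustentacular-like cells (268 and 644 CPM), and *Ret* and *Ntrk3* in the 2 noradrenaline classes.

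The co-receptors were seen in many sustentacular-like cells in spite of the low depth. A *Gfra3* UMI was found in 44.3% (36.8 to 52.0) of them, a *Gfra1* UMI in 26.7% (20.3 to 33.9) and a *Gfra2* UMI in 8.52% (4.85 to 13.7). Endothelial-like cells, with a median of 1771.5 UMIs, had the same genes in 0.0572%, 0.0572% and 0.515% of cells. Any of the 3 was seen in 59.7% (52.0 to 67.0) of sustentacular-like, 50.5% (44.9 to 56.0) of transitioning noradrenaline-like and 47.8% (37.3 to 58.5) of transitioning adrenaline-like cells. The shares were 4.45% in adrenaline and 1.03% in noradrenaline chromaffin-like cells. The transitioning cells were deeper, with medians of 4647 and 6492.5 UMIs, and with cells thinned to 1000 UMIs the 3 high shares were 55.8%, 18.8% and 13.0%.

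Within sustentacular-like cells *Gfra1* and *Gfra2* were each seen at shares that overlapped in cells with and without *Gfra3*. Of the 78 cells with *Gfra3*, 28.2% (18.6 to 39.5) also had *Gfra1*, and of the 98 cells without it 25.5% (17.2 to 35.3). For *Gfra2* the shares were 11.5% and 6.12%, with overlapping intervals. The summed sustentacular markers were alike too, 8057 CPM in cells with *Gfra3* and 8121 CPM in cells without.

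*Ret* was seen together with its co-receptors mostly in transitioning noradrenaline-like cells. Of the 25 transitioning noradrenaline-like cells with a *Ret* UMI, 15 (60.0%, 38.7 to 78.9) also had *Gfra1*, *Gfra2* or *Gfra3*, and of the 302 without one 150 did (49.7%, 43.9 to 55.5). The cells with *Ret* were deeper, with a median of 7239 against 4525.5 UMIs. Thinned to 1000 UMIs, 2 of 7 cells with *Ret* had a UMI of these co-receptors, against 59 of 318 without. In noradrenaline chromaffin-like cells 2 of the 16 cells with *Ret* had a UMI of these co-receptors, 1 of *Gfra1* and 1 of *Gfra2* (12.5%, 1.55 to 38.3), against 2 of 371 cells without *Ret* (0.539%, 0.0654 to 1.93), with median depths of 3390.5 and 2626 UMIs. Thinned, 0 of 5 such cells with *Ret* had one, against 2 of 360. The fourth co-receptor gene, *Gfra4*, which binds persephin, was seen in 7 of the 16 (43.8%, 19.8 to 70.1), against 74 of the 371 (19.9%, 16.0 to 24.4). In transitioning noradrenaline-like cells 11 of the 25 with *Ret* had *Gfra4* (44.0%, 24.4 to 65.1). Of the 302 without *Ret*, 103 did (34.1%, 28.8 to 39.8). Thinned, the *Gfra4* counts were 1 of 5 against 33 of 360 and 0 of 7 against 27 of 318. These thinned cells with *Ret* are too few to compare.

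*Gfra4* differed from its relatives in where it stood. Its level was 73.5 CPM in adrenaline, 80.0 CPM in noradrenaline, 68.8 CPM in transitioning adrenaline-like, 81.6 CPM in transitioning noradrenaline-like and 78.0 CPM in cycling chromaffin-like cells, and 4.47 CPM (1 UMI) in sustentacular-like cells. Adrenaline and noradrenaline chromaffin-like cells did not differ beyond counting error (noradrenaline over adrenaline 1.09, 0.876 to 1.34). Cortex-like cells had 0.284 CPM. *Pspn*, its ligand, had 5 UMIs in all, none of them in a medullary class.

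The ligands differed widely in how often they were detected. RefSeq promoter sequences (GRCm38.p6) were at hand for 4 of the 8 members, and the ligands are shown because they ran from *Nrtn*, with 352 UMIs, to *Artn*, with 4. Each line gives the 250 bases before an annotated start, 5′ to 3′ on the gene's strand. Capitals mark a GC box (GGGCGG or its reverse complement CCGCCC) or a TATA motif (TATAAA or TTTATA), which do not overlap. For *Gdnf* both annotated starts are shown, the second of which lies inside the gene.
Nrtn, chr17:56757549-56757798, minus strand: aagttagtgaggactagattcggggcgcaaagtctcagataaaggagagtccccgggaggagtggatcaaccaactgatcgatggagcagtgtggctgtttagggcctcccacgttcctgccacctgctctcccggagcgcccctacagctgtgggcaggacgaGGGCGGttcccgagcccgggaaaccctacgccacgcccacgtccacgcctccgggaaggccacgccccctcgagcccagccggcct
Gdnf first start, chr15:7809798-7810047, plus strand: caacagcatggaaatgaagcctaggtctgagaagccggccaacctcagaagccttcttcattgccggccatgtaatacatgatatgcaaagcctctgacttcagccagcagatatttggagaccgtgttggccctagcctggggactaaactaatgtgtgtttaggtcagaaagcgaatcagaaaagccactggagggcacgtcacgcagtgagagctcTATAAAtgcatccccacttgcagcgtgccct
Gdnf second start, chr15:7813477-7813726, plus strand: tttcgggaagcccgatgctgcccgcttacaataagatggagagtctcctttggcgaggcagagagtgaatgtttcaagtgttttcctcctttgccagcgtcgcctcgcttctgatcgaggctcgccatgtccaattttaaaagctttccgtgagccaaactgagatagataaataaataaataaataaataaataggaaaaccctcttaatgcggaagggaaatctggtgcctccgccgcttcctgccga
Artn, chr4:117929764-117930013, minus strand: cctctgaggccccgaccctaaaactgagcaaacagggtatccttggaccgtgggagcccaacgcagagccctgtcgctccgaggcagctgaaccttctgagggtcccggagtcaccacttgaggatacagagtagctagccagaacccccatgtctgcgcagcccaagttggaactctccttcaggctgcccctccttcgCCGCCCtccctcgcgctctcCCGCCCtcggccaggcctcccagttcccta
The *Nrtn* window held 1 GC box, the *Artn* window 2, the first *Gdnf* window 1 TATA motif, and the second neither. Over all 32851 windows searched, 32.7% held a GC box and 12.4% a TATA motif, so both are common and a match is a description only.

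*Nrtn* (ENSMUSG00000039481; chr17:56751325-56757530, minus strand) encodes neurturin, the GFRα2 ligand. It had 352 UMIs in the cells kept, of which 202 were in cortex-like cells at 9.55 CPM (8.28 to 10.97) and 28 in cycling cortex-like cells at 8.15 CPM (5.42 to 11.8). Adrenaline chromaffin-like cells had 46 UMIs at 6.29 CPM (4.61 to 8.40), and noradrenaline chromaffin-like cells 5 at 3.77 CPM (1.23 to 8.81). UMIs of the gene were thus found in both cortical and medullary classes. The highest value, 12.1 CPM (4.88 to 25.01) in cycling chromaffin-like cells, rested on 7 UMIs.

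No neighbouring pair of classes in the order of *Nrtn* differed beyond counting error. Classes farther apart did: cortex-like cells stood 19.6-fold (5.34 to 163) and adrenaline chromaffin-like cells 12.9-fold (3.37 to 110) above endothelial-like cells, which had 2 UMIs. Cortex-like cells exceeded the 2 chromaffin-like classes together 1.62-fold (1.18 to 2.24). Subtracting an estimate of the RNA outside cells left 1.62, but that estimate was 0.396% of the gene's chromaffin level, too little to move it. Cortex RNA was not subtracted, and cortex markers stood at 133 and 149 CPM in adrenaline and noradrenaline chromaffin-like cells. In cortex-like cells they stood at 25160 CPM. Adrenaline chromaffin-like cells with a *Nrtn* UMI held them at 95.4 CPM and those without at 135 CPM. For noradrenaline chromaffin-like cells the values were 90.9 CPM, on 5 cells, and 150 CPM. The part of cortex RNA in these values was not tested. Among the cortex-like clusters the level was 10.1 CPM in the cluster led by *Pik3c2g*, 10.5 CPM in that led by *Cyp11b1*, which encodes the last enzyme of corticosterone synthesis, and 7.16 CPM (4.98 to 9.95) in that led by *Ecrg4*. A UMI was seen in 5.80% of cortex-like, 2.65% of adrenaline chromaffin-like and 0.114% of endothelial-like cells, with median depths of 5113, 3164 and 1771.5 UMIs. Thinned to 1000 UMIs these shares were 0.982%, 0.667% and 0.136%.

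*Gdnf* (ENSMUSG00000022144; chr15:7810846-7837575, plus strand) had 11 UMIs in all, and every one lay in a class with sustentacular markers. Transitioning adrenaline-like cells had 5 UMIs in 4 cells, 7.32 CPM (2.38 to 17.1), transitioning noradrenaline-like cells 4 UMIs, 2.11 CPM (0.574 to 5.39), and sustentacular-like cells 2 UMIs, 8.94 CPM (1.08 to 32.3). The other 9 classes had none. The 2 transitioning classes together had 9 UMIs, and the 2049 adrenaline and noradrenaline chromaffin-like cells had 0. The exact bound of this ratio was at least 6.60-fold. These UMIs were too few for the ratio to be counted among those of the members below. Of the 25 transitioning noradrenaline-like cells with *Ret*, 1 also had *Gdnf*.

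*Artn* (ENSMUSG00000028539; chr4:117926162-117929763, minus strand) had 4 UMIs, all in adrenaline chromaffin-like cells at 0.547 CPM (0.149 to 1.40). The cluster led by stress-response genes such as *Atf3* held 2 of them in 110 cells. In sustentacular-like cells, where the artemin co-receptor was highest, 0 UMIs allow a level of up to 13.4 CPM.

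*Ntrk3* (ENSMUSG00000059146; chr7:78175959-78738012, minus strand) encodes TrkC, and 4 short annotated genes overlap it, 2 of them on the opposite strand. Its order resembled that of *Ret*. Transitioning noradrenaline-like cells had 25.3 CPM (18.6 to 33.5) and noradrenaline chromaffin-like cells 21.1 CPM (14.05 to 30.6). Adrenaline chromaffin-like cells stood well below, at 2.74 CPM (1.67 to 4.23). Transitioning adrenaline-like cells had 7.32 CPM (2.38 to 17.1) and cycling chromaffin-like cells 6.94 CPM (1.89 to 17.8). Fibroblast-like cells had 4 UMIs, 13.8 CPM (3.76 to 35.3), and sustentacular-like cells 1 UMI.

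Noradrenaline chromaffin-like cells stood 7.73-fold (4.20 to 14.5) above adrenaline chromaffin-like cells in *Ntrk3*. Between the transitioning classes the ratio, noradrenaline-like over adrenaline-like, was 3.45 (1.38 to 11.1). A UMI was seen in 10.7% of transitioning noradrenaline-like, 5.94% of noradrenaline and 1.14% of adrenaline chromaffin-like cells, and in none of the 1748 endothelial-like cells, which allows up to 0.172%. Median depths were 4647, 2669, 3164 and 1771.5 UMIs. Thinned to 1000 UMIs the 3 medullary shares were 2.15%, 2.74% and 0.242%, so the order of the first 2 turned, and they are not separated here. Joint detection of *Ret* and *Ntrk3* was not separable from that of *Ntrk3* in other cells. Of the 25 transitioning noradrenaline-like cells with *Ret*, 4 (16.0%, 4.54 to 36.1) had *Ntrk3*, and of the 302 without, 31 (10.3%, 7.08 to 14.3).

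The neurotrophin receptor genes *Ntrk2* and *Ngfr* stood the other way. *Ntrk2*, which encodes the BDNF receptor TrkB, had 54.3 CPM in adrenaline and 1.51 CPM in noradrenaline chromaffin-like cells (noradrenaline over adrenaline 0.0278, 0.00335 to 0.101). *Ngfr* had 27.2 and 4.53 CPM (0.166, 0.0603 to 0.369), and a level of 103 CPM in sustentacular-like cells. As for *Ntrk3*, short annotated genes overlap *Ntrk2*, 4 in number, so reads there are uncertain.

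**Figure D3:**
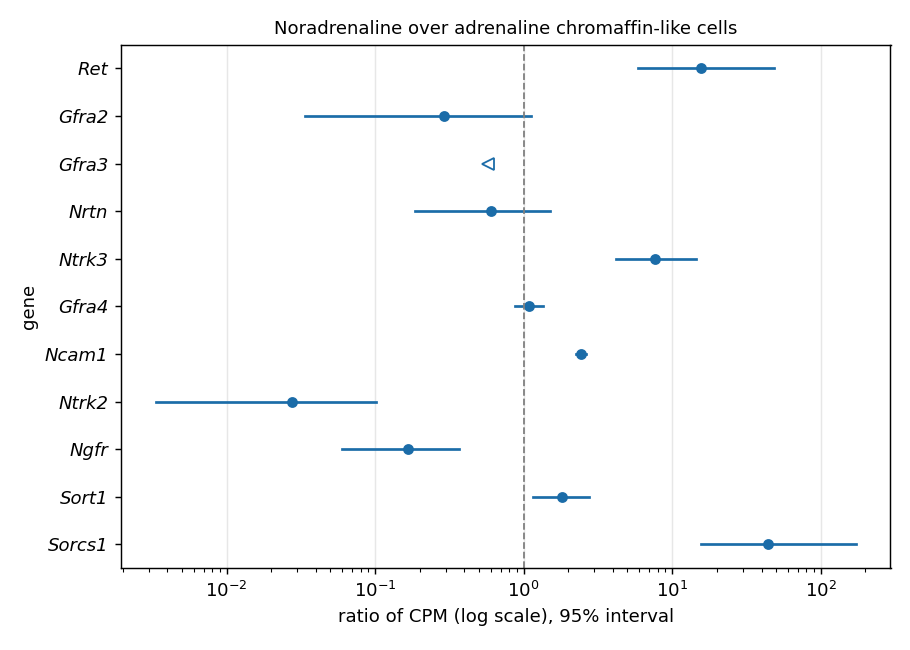
Ratio of CPM in noradrenaline over adrenaline chromaffin-like cells (x axis, log scale) for members and other receptor genes (y axis), with exact 95% intervals. The open triangle is the upper bound for *Gfra3*, which had 0 UMIs in noradrenaline chromaffin-like cells, and the dashed line marks 1. *Ret* (15.6) and *Ntrk3* (7.73) lie right of the line, *Ntrk2* (0.0278) left of it, and the interval of *Gfra4* spans it.

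Counted over the members, 5 of the 8 had at least 20 UMIs in adrenaline and noradrenaline chromaffin-like cells together. Of these 2 (*Ret*, *Ntrk3*) were at least 2-fold higher in noradrenaline chromaffin-like cells, where 6.09% of the 11569 genes of that depth were. *Gfra3* (0 UMIs, ratio up to 0.578) and *Gfra2* were counted as at least 2-fold lower, against 9.16% of genes. The *Gfra2* interval included 1 (noradrenaline over adrenaline 0.290, 0.0339 to 1.12). Both reached 20 UMIs only through adrenaline chromaffin-like cells, with 37 and 38 UMIs there. *Nrtn* had a ratio of 0.5998 (0.186 to 1.504). The median ratio was 0.5998 over the 5 members and 0.996 over all genes.

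For sustentacular-like against the 2 chromaffin-like classes together, 6 members had enough UMIs. *Gfra1* (331-fold, 151 to 858), *Gfra3* (150.3-fold, 104 to 222) and *Gfra2* (14.5-fold, 7.43 to 26.8) were at least 2-fold higher, 3 of 6, where 15.2% of 11820 genes were at least 2-fold higher. Counted as UMIs per cell rather than CPM, the 3 ratios were 99.8, 45.3 and 4.37 in the same order, outside these intervals. *Gfra1* reached 20 UMIs only through the sustentacular-like cells, with 60 UMIs against 7, so the count is a description only. *Ret* was counted as lower, since it had 0 UMIs against 23, where 30.4% of genes were, but its interval reached 6.72 and so included 1. The ratios of *Nrtn* (1.51, 0.179 to 5.76) and *Ntrk3* (0.804, 0.0200 to 4.70) were not separable from 1. The median was 7.996 over the 6 members and 0.839 over all genes.

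For the 2 transitioning classes against the same chromaffin-like cells, 5 of 6 members were at least 2-fold higher, where 7.68% of 12268 genes were, and none was lower, where 3.27% of genes were. The ratios were 53.5 (25.1 to 136) for *Gfra1*, 16.1 (11.2 to 23.6) for *Gfra3*, 4.51 (2.54 to 8.09) for *Ret*, 3.69 (2.45 to 5.57) for *Ntrk3* and 2.42 (1.45 to 4.01) for *Gfra2*. *Nrtn*, the sixth, had 0.918 (0.469 to 1.68). *Gfra1* reached 20 UMIs only through the transitioning classes, with 89 UMIs in the noradrenaline-like and 23 in the adrenaline-like one. It had 7 in the chromaffin-like cells, so the count is a description only. The median was 4.10 over the 6 members and 1.04 over all genes. Adrenaline cells make up most of the chromaffin-like group. Against noradrenaline chromaffin-like cells alone, transitioning noradrenaline-like cells had a ratio of 1.23 (0.658 to 2.38) for *Ret* and 1.20 (0.735 to 1.98) for *Ntrk3*, both of which include 1.

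**Figure D4:**
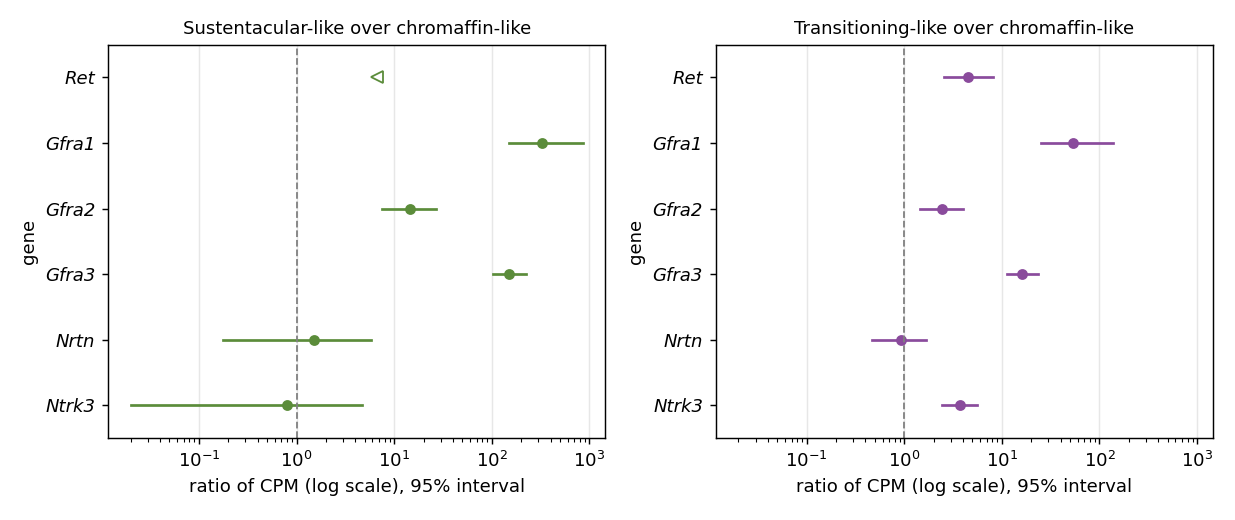
Ratio of CPM in sustentacular-like (left) and transitioning (right) over chromaffin-like cells (x axes, log scale) for the 6 members with at least 20 UMIs (y axes), with exact 95% intervals. The open triangle is the upper bound for *Ret*, which had 0 UMIs in sustentacular-like cells, and the dashed line marks 1. *Gfra1* and *Gfra3* lie far to the right in both panels (331 and 150.3, 53.5 and 16.1), and *Nrtn* spans the line in both.

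Against cortex-like cells, 4 of 5 members were at least 2-fold higher in chromaffin-like cells, where 24.6% of 13901 genes were, and none was lower by that fold, where 22.0% of genes were. These were *Gfra2* (98.0-fold, 16.6 to 3965), *Ret* (28.2-fold, 6.96 to 246), *Ntrk3* (13.1-fold, 6.34 to 30.3) and *Gfra3* (9.06-fold, 4.42 to 20.4). The first 2 rest on 1 and 2 UMIs in cortex-like cells, and with called doublets removed and cells clustered anew the *Gfra2* ratio was 24.0. All 4 reached 20 UMIs only through the chromaffin-like cells, where they were high (40, 23, 48 and 37 UMIs). Their number against the share of all genes is therefore a description only. The median was 13.1 over the 5 members and 1.02 over all genes.

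For cycling chromaffin-like against the other chromaffin-like cells, 3 of 5 members were at least 2-fold higher, where 8.74% of 11798 genes were, and none was lower, where 8.20% of genes were. They were *Gfra3* (6.07-fold, 3.09 to 11.3), *Gfra2* (3.74-fold, 1.67 to 7.62) and *Nrtn*, whose interval included 1 (2.05-fold, 0.787 to 4.55). In the 9 cycling cells with *Gfra2* the sustentacular markers stood at 19.5 CPM, against 179 CPM in the other 81. No interval was computed for these sums, and the first rests on few cells. The median was 2.05 over the 5 members and 1.02 over all genes.

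The remaining genes of the RET system are a list of 10 with co-receptors, ligands and modulators of RET. Of the 4 with at least 20 UMIs in noradrenaline and adrenaline chromaffin-like cells, 1 was at least 2-fold higher, where 6.09% of all genes were, and none lower, where 9.16% were. It was *Ncam1*, an alternative partner of GFRα1, with 726 against 297 CPM (2.44-fold, 2.26 to 2.64). In sustentacular-like cells *Ncam1* (2.70-fold, 2.34 to 3.09) and *Sdc3*, a heparan sulfate proteoglycan that binds GDNF-family ligands (5.09-fold, 3.10 to 7.96), were higher than in chromaffin-like cells and *Gfra4* was lower. *Gas1*, a structural relative of the GFRα proteins, had 38.5 CPM in cortex-like, 35.8 CPM in sustentacular-like (8 UMIs) and 0.347 CPM in chromaffin-like cells. *Gfral*, which encodes the receptor of GDF15, had 0 UMIs.

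Among the other genes of neurotrophin signalling, *Sort1*, which encodes the sorting receptor sortilin, had 22.6 CPM in noradrenaline and 12.5 CPM in adrenaline chromaffin-like cells (1.82-fold, 1.16 to 2.78). *Sorcs1*, a member of the same receptor family, had 24.2 against 0.547 CPM (44.1-fold, 15.7 to 172). *Sorcs1* was also high in transitioning noradrenaline-like (54.3 CPM) and sustentacular-like cells (125 CPM). Among the ligands, *Ntf3*, which encodes the TrkC ligand neurotrophin-3, had 23.9 CPM in endothelial-like and 18.7 CPM in cycling endothelial-like cells. It had 4 UMIs (2.11 CPM) in transitioning noradrenaline-like cells, where *Ntrk3* was highest, and 12 (0.568 CPM) in cortex-like cells. Adrenaline and noradrenaline chromaffin-like cells had 0 UMIs of it. *Bdnf* had 17 UMIs in the cells kept.

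**Figure D5:**
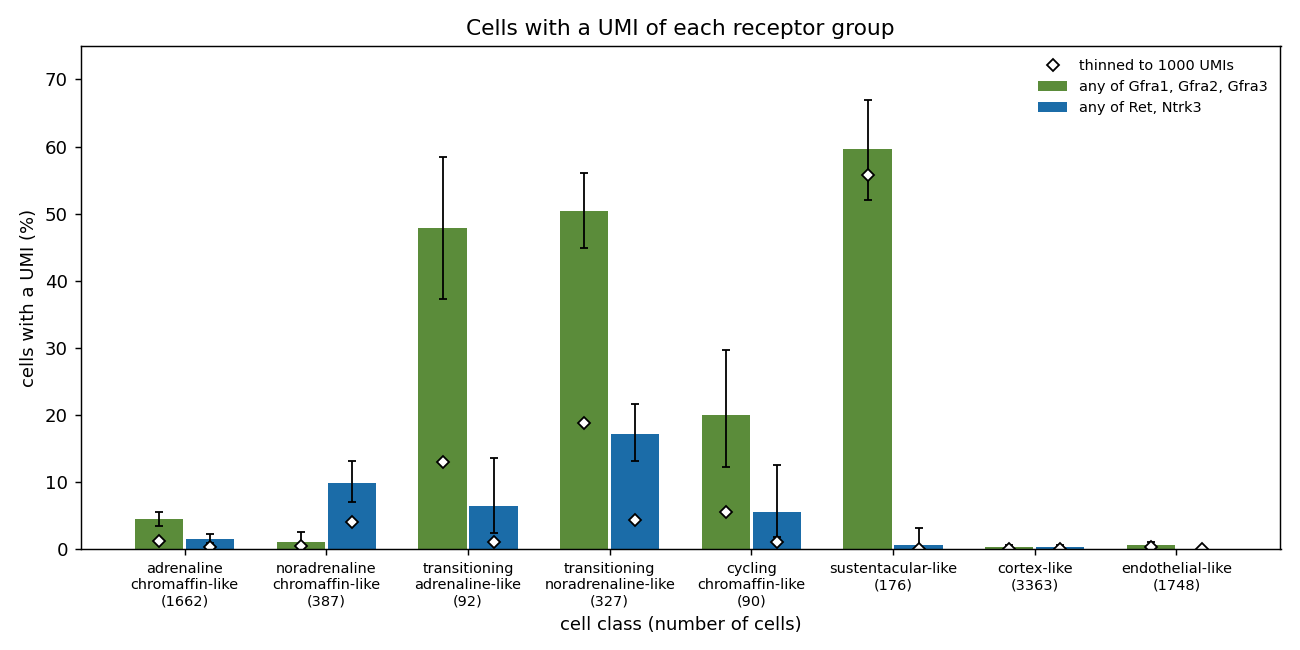
Percent of cells (y axis) with a UMI of any of *Gfra1*, *Gfra2* and *Gfra3* (green) or of *Ret* and *Ntrk3* (blue) by cell class (x axis, number of cells in brackets). Bars have exact 95% binomial intervals, and diamonds are the shares with each cell thinned to 1000 UMIs. The green bars are 59.7% in sustentacular-like cells and near 50.5% and 47.8% in the transitioning classes, and the blue bar is 1.504% in adrenaline and 9.82% in noradrenaline chromaffin-like cells.

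Downstream of the kinases, 15 of the 21 adaptor genes had enough UMIs in the chromaffin types. Of these 2 were at least 2-fold higher in noradrenaline cells, where 6.09% of all genes were, *Shc4* (4.07-fold, 2.48 to 6.63) and *Gab2* (2.06-fold, 1.47 to 2.84), and none was lower, where 9.16% were. In sustentacular-like against chromaffin-like cells 4 of 16 were higher and 3 lower by that fold, where 15.2% and 30.4% of all genes were. The intervals of *Dok4* (2.76, 0.318 to 10.9), *Shc2* (0 UMIs against 50, up to 2.96) and *Cblb* (0.434, 0.0889 to 1.28) included 1, and these 3 were named after their values were seen. *Gab1*, a docking protein for receptor tyrosine kinases, had 197 against 5.33 CPM (36.9-fold, 23.9 to 57.1) and *Shc4* 139 against 8.46 CPM (16.4-fold, 10.4 to 25.3), whereas *Shc1* had 22.4 against 74.5 CPM.

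Of the feedback and target genes of MAPK signalling, 5 of the 6 tested were at least 2-fold higher in sustentacular-like than in chromaffin-like cells, where 15.2% of all genes were, and 1 was lower, where 30.4% were. *Dusp6*, a phosphatase of ERK, had 103 against 1.16 CPM (88.8-fold, 40.7 to 209), and *Etv1*, a transcription factor, 161 against 3.47 CPM (46.3-fold, 27.7 to 77.9). The gene counted as lower, *Etv5*, had 0 UMIs against 82, and its interval reached 1.78 and so included 1. In the transitioning classes 4 of 6 were higher, where 7.68% of all genes were, and none lower, where 3.27% were, led by *Dusp6* (9.36-fold, 4.41 to 21.6) and *Etv1* (7.80-fold, 5.02 to 12.4). *Dusp6* had under 20 UMIs in the chromaffin-like cells and was tested only through the classes where it was high, so these counts are descriptions only. *Dusp6* and *Etv1* were also high in cortex-like cells, at 26.5 and 101 CPM. In cortex-like cells *Gfra1*, *Gfra2* and *Gfra3* stood at 0.189, 0.0473 and 0.473 CPM. A link of *Dusp6* and *Etv1* to the co-receptors was not tested.

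Genes with the most similar order of levels were ranked over the 12 classes by Pearson's r of log2(CPM + 1), as a description. The classes share 1 library and differ in depth. For *Gfra1* they were *Nkain4*, *Fam107a* and *Paqr6* (r from 0.984 to 0.994), and for *Gfra3* *Sfrp5*, *Anks1b* and *Plekha4* (0.970 to 0.976). For *Gfra2* they were *Spon1*, *Pkia* and *Gon4l* (0.926 to 0.941), for *Nrtn* *Cspg5*, *Wrnip1* and *Cdk8* (0.957 to 0.965), and for *Ntrk3* *Scube1*, *Rgs5* and *Robo2* (0.953 to 0.965). The other 3 members had under 100 UMIs and were not ranked.

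The pool held cells of both sexes, told apart by *Xist* and Y-linked UMIs, and the mice behind each cell are not known. In transitioning noradrenaline-like cells *Ret* had 17.1 CPM in 77 female and 15.0 CPM in 152 male cells, with overlapping intervals (7.38 to 33.7 and 8.38 to 24.7). *Gfra3* had 89.7 CPM (64.7 to 121) and 65.8 CPM (50.9 to 83.8). In cortex-like cells *Nrtn* had 11.2 CPM (8.35 to 14.6) in 745 female and 9.21 CPM (7.57 to 11.1) in 1650 male cells. Other values lay farther apart. Their separate intervals overlapped, which does not show that the sexes were alike, and no interval for the ratio of the sexes was computed. In the same transitioning class *Gfra1* had 66.2 CPM (45.0 to 94.0) in female and 37.9 CPM (26.8 to 52.0) in male cells, and *Ntrk3* 40.6 CPM (24.4 to 63.4) and 19.95 CPM (12.2 to 30.8). *Gfra2* in adrenaline chromaffin-like cells had 1.72 CPM (0.208 to 6.21) in 281 female and 7.61 CPM (5.13 to 10.9) in 674 male cells. *Gfra1* in sustentacular-like cells had 213 CPM (85.8 to 440) in 22 female and 511 CPM (292 to 829) in 26 male cells. Cells with neither or both signs were left out of these values.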

How the data were processed

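The UMI counts were deposited by the authors as 1 matrix of whole-number counts per gene and barcode, not normalized. Per the labels they came from Cell Ranger 4.0.0 and build mm10, with a 3′-end droplet kit. Cells with 500 to 5000 genes and at most 20% mitochondrial UMIs were kept, the limits of the study. They were clustered with Seurat 5.3.0 (R 4.3.3; 2000 variable features, 10 principal components, Louvain resolution 0.4), with 60 pathway genes, the members among them, kept out of the variable features. Clusters were named from marker lists, needing 3 markers detected in 50% of the cells (25% for sustentacular and cycling lists). Medullary clusters were clustered again, in 2 passes, until none held markers of other types.

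Doublets were called with Scrublet in scanpy 1.11.5 (669 of the cells kept) and were left in except in an alternative. Levels, intervals and ratios were computed in Python 3.11.15 with scipy 1.17.1. A ratio was counted where it reached 2-fold and the classes together had at least 20 UMIs. A gene can pass that limit through the class where it is high, so counts against the share of all genes are descriptions only. The calculation was tested on simulated data. Named genes were the 8 members, genes of the RET system and neurotrophin lists, at most 5 adaptor or feedback genes a contrast in each direction, and the 3 genes most like a member. The members and lists were chosen with earlier results of these data known. Some genes of the neurotrophin list are not reported here.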

Additional observations from a re-analysis of the deposited data

Results flagged for a closer look

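UMIs of the members outside the 12 classes were listed because no comparison above uses them. In the 1075 barcodes outside the gene and mitochondrial limits *Gfra3* had 44 UMIs (15.9 CPM, 11.59 to 21.4), *Gfra1* 19, *Nrtn* 14, *Gfra2* 9 and *Ntrk3* 6, and *Ret*, *Gdnf* and *Artn* had 0. In the 781 cells of clusters with markers of unrelated types *Gfra3* had 67 UMIs (14.2 CPM, 11.02 to 18.1), *Nrtn* 43, *Gfra1* 22, *Gfra2* 18, *Ret* 8 and *Ntrk3* 6.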

How the results depend on the processing

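No paired analysis was possible because there is 1 library. The 3 main sets of ratios gave 14 member ratios with a value. Over the 12 alternatives 142 of their values stayed inside the main interval and 9 moved. None of these ratios whose interval lay on 1 side of 1 changed direction. The noradrenaline to adrenaline ratio of *Gfra3* and the sustentacular to chromaffin ratio of *Ret* had no main value and were not followed. Of the 16 levels and shares by class, 71 values stayed and 28 moved. With UMIs per cell in place of CPM the sustentacular to chromaffin ratio was 99.8 for *Gfra1*, 4.37 for *Gfra2* and 45.3 for *Gfra3*, and *Nrtn* in cortex-like over chromaffin-like cells was 2.41-fold. In female cells sustentacular over chromaffin was 40.5-fold for *Gfra2* and 5.78-fold for *Nrtn*. These rest on 2 and 1 sustentacular UMIs, and *Gfra2* had 2 UMIs in female adrenaline and 0 in female noradrenaline chromaffin-like cells. For *Ntrk3*, where the main ratio of chromaffin over sustentacular was 1.24 on 1 sustentacular UMI and not separable from 1, the direction turned in male cells (0.160) and with doublets removed (0.9504). *Nrtn* turned too, in sustentacular over chromaffin with doublets removed (0.990) and as UMIs per cell (0.457), and in adrenaline over noradrenaline (main 1.67) with the mean over cells (0.824), in female cells (0.848) and thinned (0.959). For *Gfra3* the sustentacular ratio was 100.3 with called doublets removed and 90.4 with cells thinned to 1000 UMIs. With doublets removed the sustentacular-like level was 190 CPM for *Gfra1* and 430.3 CPM for *Gfra3*. That setting clustered the cells anew and gave 194 sustentacular-like cells, whereas none of the main 176 was a called doublet. The cause of the lower levels was not tested. A stricter filter (at least 1000 genes, at most 10% mitochondrial UMIs) left no sustentacular-like cluster, so it gave no sustentacular value. The noradrenaline over adrenaline ratio ran from 8.91 to 22.9 for *Ret* and from 6.01 to 11.3 for *Ntrk3*, with no *Ret* value in female cells. At a resolution of 0.2, with 30 principal components, or with the pathway genes kept, there was 1 transitioning cluster, so the division of these cells depends on the settings. Ratios between the 2 transitioning classes were not followed.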
